A study of Homo sapiens with 6 samples.

Results

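The BCL2 family decides whether the outer mitochondrial membrane is opened during apoptosis, and 10 of its genes were followed here through 6 RNA-seq libraries of HCT116 cells. The members were taken by gene symbol from the deposited count table of 60675 genes: the guardians BCL2, BCL2L1 and MCL1, the BH3-only genes BCL2L11, BBC3, PMAIP1, BID and BIK, and the effectors BAX and BAK1. All 10 were found, and all 10 were among the 16503 genes with enough counts to be tested. Each member is a protein-coding gene in GENCODE release 29 on GRCh38.

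HCT116 is an established human colorectal carcinoma cell line. RNA was sequenced from 2 libraries of untreated cells of the genotype labelled wildtype, 2 libraries of wildtype cells exposed to 3 uM SP2509 over 48 h, and 2 libraries of cells in which PIR was knocked down by transient transfection of small interfering RNA for 48 h (siPIR). SP2509 inhibits LSD1, a demethylase of histone H3, and Pirin, the product of PIR, is a nuclear protein that binds iron. For the siPIR samples the treatment label reads SP2509 too, whereas the titles mention only siPIR, so whether those cells received the compound is unclear. No library is labelled as carrying a control siRNA, and the labels do not say whether untreated cells received DMSO. Nothing in the labels says that the libraries of a group came from separate cultures, so the p-values measure only the spread between these libraries, which may be technical.

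Guardians such as BCL-2, BCL-XL (the main product of BCL2L1) and MCL-1 hold the effectors BAX and BAK in check. BH3-only proteins carry a single short helix with which they occupy the groove of the guardians, and some of them also activate the effectors directly. Once activated, BAX and BAK form oligomers in the outer mitochondrial membrane and release cytochrome c. BBC3 (PUMA), PMAIP1 (NOXA) and BAX are textbook targets of p53, and PMAIP1 and BCL2L11 (BIM) are also known to respond to the integrated stress response. MCL-1 is short-lived, and NOXA binds it in preference to BCL-2. Several of these genes make spliced forms of opposite function, and counts per gene cannot tell those forms apart.

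The libraries held between 22622441 and 28816590 counts. PIR had 37 and 39 counts in the siPIR libraries against 462 and 519 in untreated ones, the direction that the knockdown label implies. The 8 epithelial markers summed to between 3596 and 3665 CPM (counts divided by the effective library size, with TMM normalisation, on the usual scale) in untreated, 4651 and 4703 CPM in SP2509 and 1319 and 1327 CPM in siPIR libraries, with 0 of 8 at 0 counts in both libraries of any group. In siPIR 5 of the 7 tested fell and 2 rose as fitted, and 4 fell and 2 rose with the GC correction described with the siPIR results. Leukocyte markers summed to at most 1.86 CPM. Fibroblast markers summed to 22.8 and 25.7 CPM in untreated libraries, to between 20.8 and 22.1 CPM with SP2509 and to between 1.78 and 2.13 CPM in siPIR libraries. COL1A1, of 61.1% GC, carried most of each sum (23.4, 21.2 and 1.36 CPM on average), COL1A2 was at 0 in every library, and of the 7 markers 1, 4 and 4 were at 0 in both libraries of the group. The part of these markers in the results was not tested. In siPIR libraries the fold changes of all genes followed the GC content of the transcript, with a Spearman correlation of -0.883 across genes, which are not independent replicates, against -0.089 for SP2509. The siPIR libraries also differed more from each other than the other pairs did, with a chi-square per degree of freedom of 17.4 over genes, against 6.57 for SP2509 and 4.10 for untreated libraries.

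In untreated cells the guardians BCL2L1 and MCL1 were the most abundant members per length of exon. BCL2L1 stood at 64.8 ± 0.611 CPM per kb (SD, n = 2) and MCL1 at 37.8 ± 0.671 CPM per kb. PMAIP1, at 21.8 ± 2.75 CPM per kb, and BAX, at 20.6 ± 1.29 CPM per kb, followed with overlapping values, so their order is not resolved. BIK (10.9 CPM per kb), BAK1 (8.25), BBC3 (7.84), BID (7.18) and BCL2L11 (5.26) formed a lower tier in which no neighbours overlapped. BCL2 was lowest by a wide margin, at 0.415 ± 0.0286 CPM per kb. Exon length here is the union of all annotated exons (11.8 kb for BCL2, 0.953 kb for BIK), so a gene that uses few of its exons appears lower than its transcript level.

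With SP2509 the order changed at the second place. BCL2L1 stayed first at 83.1 ± 4.91 CPM per kb, and PMAIP1, at 71.0 ± 2.17 CPM per kb, stood above MCL1, at 50.8 ± 4.14 CPM per kb, without overlap. BBC3 was at 28.7 ± 2.02 CPM per kb, overlapping BAX at 29.5 ± 0.573. In siPIR libraries MCL1 was first at 207 ± 16.4 CPM per kb and PMAIP1 second at 159 ± 29.9 CPM per kb, while BAX (1.30 ± 0.154 CPM per kb) and BBC3 (0.402 ± 0.0821 CPM per kb) were near the bottom with BCL2 (0.319 ± 0.101 CPM per kb). These levels are not corrected for GC content, which ran from 37.2% for PMAIP1 to 69.7% for BBC3. Since fold changes in siPIR libraries followed GC content, their order there cannot be read as a change in the family alone.

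**Figure D1:**
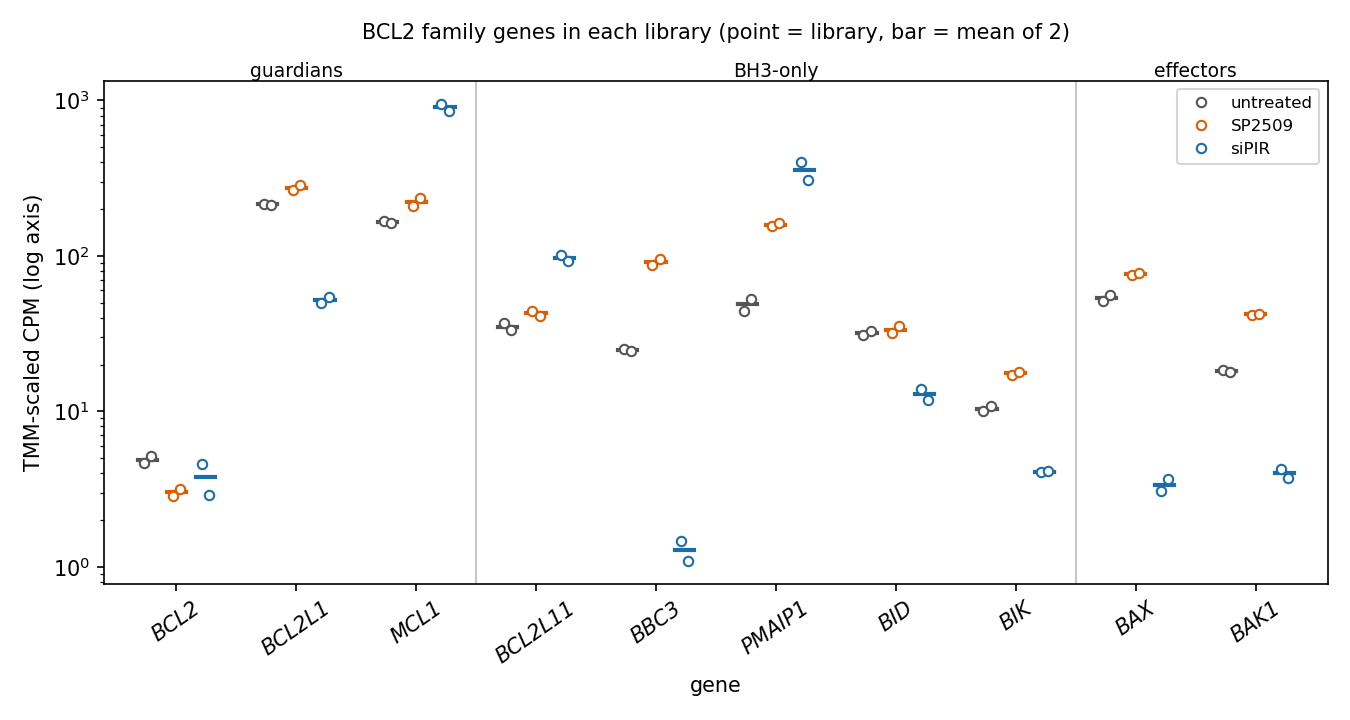
TMM-scaled CPM on a log axis for the 10 genes, ordered by role, with a point for each library and a bar at the mean of the 2 libraries of a group. BBC3 runs from about 1.28 CPM in siPIR to 91.4 CPM in SP2509 libraries, and MCL1 is highest in siPIR libraries at 905 CPM. Values are not corrected for GC content.

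Setting SP2509 against untreated cells addresses how the compound changes these genes. Of the 10 members, 8 rose, 1 fell (BCL2) and 1 (BID) did not pass the test, at an adjusted p of 0.05 by edgeR's quasi-likelihood test over all genes. Over all 16503 genes, 33.5% were called higher and 35.1% lower. The median log2 fold change of the members was 0.47, against -0.04 over all genes tested. By role, 4 of 5 BH3-only genes, 2 of 2 effectors and 2 of 3 guardians rose. The largest rises were in BBC3, PMAIP1 and BAK1. In bulk RNA, fewer cells with a transcript and less of it per cell cannot be told apart.

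BBC3 (chromosome 19, 47220822 to 47232766, minus strand) encodes PUMA, a BH3-only protein that binds all guardians. It was at 25.3 and 24.6 CPM in the untreated libraries and at 86.8 and 95.9 CPM with SP2509. Both treated libraries lay far above both untreated ones, a 3.66-fold rise (log2 fold change 1.87, SE 0.104, edgeR adjusted p = 1.65e-08). PMAIP1 (chromosome 18, 59899948 to 59904306, plus strand) encodes NOXA, the partner of MCL-1. Its level was 44.3 and 53.03 CPM in untreated and 155 and 162 CPM in SP2509 libraries. The groups did not overlap, and the rise was 1.71 on the log2 scale (SE 0.136, edgeR adjusted p = 2.90e-07).

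The promoter windows of the 3 largest risers, and of BAX as the other effector, are shown because these genes rose together. Each window runs from 250 bases before to 50 bases after a RefSeq start site (GRCh38.p14) and is written along the strand of the gene. Such a window was found for 8 of the 10 members, not for MCL1 and BIK. Capitals mark matches on either strand to TGACGT (an ATF/CREB core), TGAGTCA (an AP-1 site), CACGTG (an E-box) or GGGCGG (a GC box), which overlapped nowhere in these 4 windows.
BBC3, chr19:47232618-47232917, minus strand: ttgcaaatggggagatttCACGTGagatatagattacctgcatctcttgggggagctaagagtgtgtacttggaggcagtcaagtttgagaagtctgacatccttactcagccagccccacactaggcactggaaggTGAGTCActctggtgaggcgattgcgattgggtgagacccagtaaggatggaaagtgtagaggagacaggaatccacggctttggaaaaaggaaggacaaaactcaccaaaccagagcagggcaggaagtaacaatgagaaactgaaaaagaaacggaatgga
PMAIP1, chr18:59899746-59900045, plus strand: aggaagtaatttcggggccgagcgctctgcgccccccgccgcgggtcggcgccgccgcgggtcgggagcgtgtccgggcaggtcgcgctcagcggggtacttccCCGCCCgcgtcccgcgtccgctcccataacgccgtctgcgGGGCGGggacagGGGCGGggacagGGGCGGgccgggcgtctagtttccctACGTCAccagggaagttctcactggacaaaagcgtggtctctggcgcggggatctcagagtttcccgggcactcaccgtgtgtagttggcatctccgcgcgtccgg
BAK1, chr6:33580227-33580526, minus strand: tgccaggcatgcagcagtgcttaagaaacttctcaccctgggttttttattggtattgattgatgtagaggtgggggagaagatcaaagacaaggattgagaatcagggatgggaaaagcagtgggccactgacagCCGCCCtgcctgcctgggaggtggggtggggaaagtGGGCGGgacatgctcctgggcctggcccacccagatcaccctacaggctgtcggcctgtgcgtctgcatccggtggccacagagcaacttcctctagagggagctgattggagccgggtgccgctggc
BAX, chr19:48954625-48954924, plus strand: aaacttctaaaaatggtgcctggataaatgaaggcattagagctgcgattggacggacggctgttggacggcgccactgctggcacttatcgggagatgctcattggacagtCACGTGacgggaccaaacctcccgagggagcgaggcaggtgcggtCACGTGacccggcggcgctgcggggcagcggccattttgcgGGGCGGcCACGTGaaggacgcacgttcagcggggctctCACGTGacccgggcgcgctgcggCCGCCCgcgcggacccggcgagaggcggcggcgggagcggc
The PMAIP1 window held 1 match to TGACGT, read on the opposite strand as ACGTCA, and 4 to GGGCGG. In the BBC3 window there was 1 match to TGAGTCA and 1 to CACGTG, and none to GGGCGG. BAX had 4 matches to CACGTG and 2 to GGGCGG, while BAK1 had 2 to GGGCGG and 1 to the p53 decamer consensus, which is not marked. The BBC3, PMAIP1 and BAX windows held no match to that consensus. Among all 35116 RefSeq windows of the same length, 7.98% held TGACGT, 4.95% TGAGTCA, 7.26% CACGTG, 44.95% GGGCGG and 6.63% the p53 decamer consensus. A match describes the letters of the window and shows no binding, and sites elsewhere in a gene were not searched.

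The other BH3-only genes changed less. BIK (chromosome 22, 43110748 to 43129712, plus strand), which encodes a BH3-only protein of the endoplasmic reticulum, was at 9.99 and 10.8 CPM in untreated and at 17.0 and 18.0 CPM in SP2509 libraries. It rose 1.69-fold (log2 fold change 0.76, SE 0.112, edgeR adjusted p = 5.84e-05). BCL2L11 (chromosome 2, 111119378 to 111168447, plus strand), the gene of BIM, was at 36.9 and 33.2 CPM in untreated and at 44.4 and 41.4 CPM in SP2509 libraries. The groups were separate by a narrow margin, by 0.29 on the log2 scale (SE 0.104, edgeR adjusted p = 0.0248). That call was lost without untreated replicate 2 (0.21, edgeR adjusted p = 0.243), without SP2509 replicate 1 (0.25, edgeR adjusted p = 0.159) and without SP2509 replicate 2 (0.36, edgeR adjusted p = 0.0501). A long noncoding RNA on the opposite strand, MIR4435-2HG, shares 727 exon bases with BCL2L11 and had 234 and 164 counts in untreated against 1438 and 1381 counts in SP2509 libraries. The sources used here do not give the strand setting of the counting, so reads from the shared bases cannot be assigned with certainty. BID (chromosome 22, 17734138 to 17774770, minus strand), which links death receptors to mitochondria after cleavage by caspase-8, was at 31.0 and 32.9 CPM in untreated and at 31.8 and 35.2 CPM in SP2509 libraries. These values overlapped, and the log2 difference was 0.072 (SE 0.108, edgeR adjusted p = 0.569).

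The effectors rose by unequal amounts. BAK1 (chromosome 6, 33572547 to 33580293, minus strand), whose protein sits in the mitochondrial membrane of healthy cells, was at 18.5 and 18.0 CPM in untreated and at 41.6 and 42.5 CPM in SP2509 libraries. The replicates lay close together and the rise was 2.30-fold (log2 fold change 1.20, SE 0.101, edgeR adjusted p = 4.53e-07). BAX (chromosome 19, 48954815 to 48961798, plus strand), whose protein moves from the cytosol to mitochondria on activation, was at 50.9 and 55.6 CPM in untreated and at 75.3 and 77.4 CPM in SP2509 libraries. It rose 1.43-fold (log2 fold change 0.52, SE 0.098, edgeR adjusted p = 0.000421). Within a library, the ratio of BAK1 to BAX per kb was 0.424 and 0.379 in untreated cells and 0.646 and 0.643 with SP2509.

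Among the guardians, MCL1 and BCL2L1 rose slightly and BCL2 fell. MCL1 (chromosome 1, 150574551 to 150579738, minus strand) was at 167 and 163 CPM in untreated and at 209 and 235 CPM in SP2509 libraries, with a log2 change of 0.43 (SE 0.104, edgeR adjusted p = 0.00273). BCL2L1 (chromosome 20, 31664452 to 31723989, minus strand), the most abundant member in untreated cells, was at 216 and 213 CPM in untreated and at 264 and 287 CPM in SP2509 libraries. Its log2 fold change was 0.36 (SE 0.097, edgeR adjusted p = 0.00527), a call that was lost without untreated replicate 2 (edgeR adjusted p = 0.0644) and without SP2509 replicate 2 (edgeR adjusted p = 0.0617). BCL2 (chromosome 18, 63123346 to 63320128, minus strand) was covered by 168 and 162 reads in untreated and by 73 and 82 in SP2509 libraries, which corresponds to 4.65 and 5.12 CPM against 2.87 and 3.18 CPM. All 4 values were low and did not overlap between groups (log2 fold change -0.69, SE 0.198, edgeR adjusted p = 0.00776). The fall did not pass with DESeq2 (adjusted p = 0.0714), without untreated replicate 2 (edgeR adjusted p = 0.059) or without SP2509 replicate 1 (edgeR adjusted p = 0.0644).

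The calls of BBC3, PMAIP1, BAK1, BIK and BCL2 held under 3 scalings of the libraries, and those of the other 4 called members did not. Over all genes the median log2 change was -0.04 (TMM), -0.27 (upper quartile) and -0.43 (total counts), and higher calls made up 48.8%, 36.2% and 28.3% of all calls. A change of scaling shifts the log2 fold changes of all genes alike. The distance of a member from these medians therefore stays the same by construction, for instance 1.91 for BBC3 and 0.40 for BCL2L1 under all 3. With total counts alone BBC3 (1.48), PMAIP1 (1.31), BAK1 (0.81), BIK (0.37) and BCL2 (-1.08) were called. MCL1 then stood at 0.036 (edgeR adjusted p = 0.764), BAX at 0.13 (0.283), BCL2L1 at -0.031 (0.794) and BCL2L11 at -0.098 (0.42), none of them called, while BID passed as lower (-0.32, 0.0147). With upper-quartile scaling the calls of MCL1 (0.19, edgeR adjusted p = 0.0962), BCL2L1 (0.13, 0.263) and BCL2L11 (0.057, 0.629) were lost. Mitochondrial ribosomal RNA took 6.33% and 6.93% of counts with SP2509 against 1.63% and 1.59% in untreated libraries. With mitochondrially encoded, ribosomal protein and histone genes removed before scaling, the count of members was 8 higher and 1 lower. Of the 11205 calls over all genes in that fit, 48.8% were higher. That fit used TMM, and the other 2 scalings were not rerun without these genes. It therefore cannot tell how far these genes account for the dependence on scaling.

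**Figure D2:**
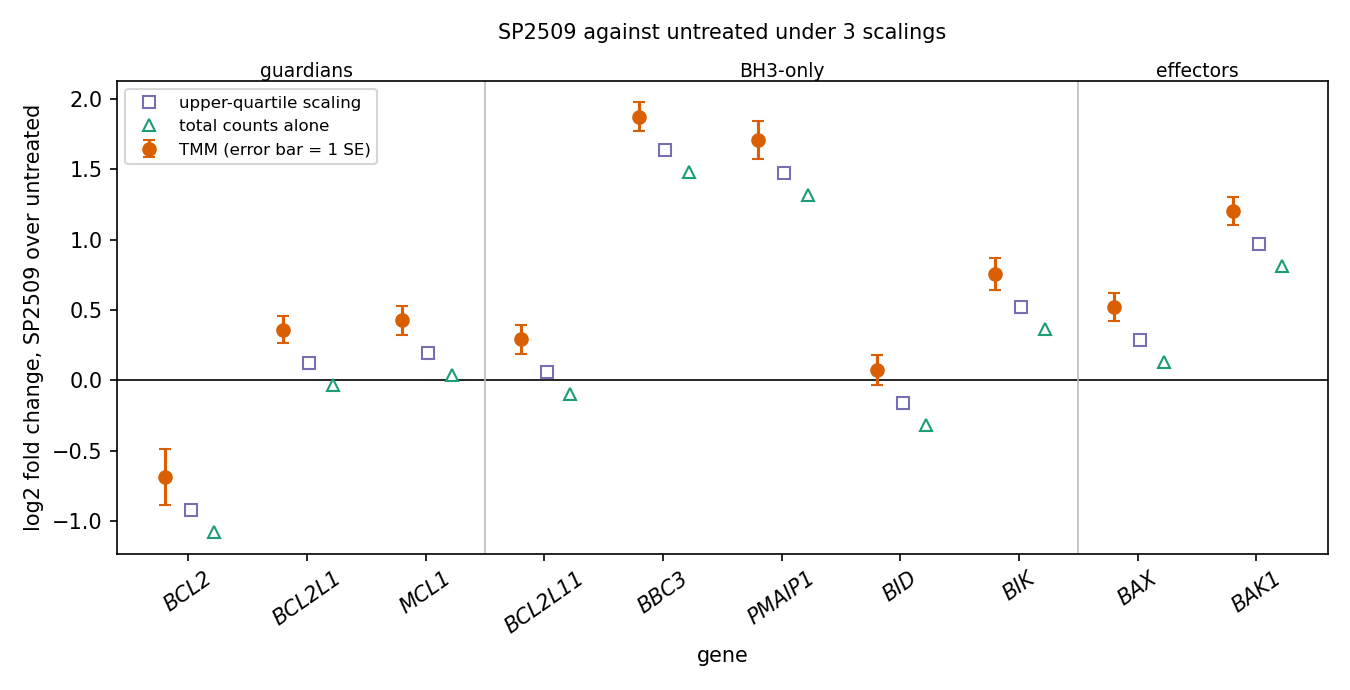
Log2 fold change of SP2509 over untreated for each gene by role, with TMM scaling (filled circles, error bars of 1 SE, 2 libraries per group), upper-quartile scaling (squares) and total counts alone (triangles). BBC3, PMAIP1, BIK and BAK1 are above 0 under all 3, BCL2 is below 0 under all 3, and BCL2L1, BCL2L11 and BID lie on either side of 0 depending on the scaling.

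Ratios between members within a library do not depend on the scaling and are given per kb of exon as a description without a test. The ratio of PMAIP1 to MCL1 was 0.518 and 0.636 in untreated libraries and 1.45 and 1.35 with SP2509, so NOXA transcripts went from below to above those of its partner. BBC3 to BCL2L1 went from 0.122 and 0.12 to 0.343 and 0.348. BAK1 to BCL2L1 went from 0.128 and 0.127 to 0.236 and 0.222. The ratio of MCL1 to BCL2L1 moved little, from 0.587 and 0.58 to 0.601 and 0.62, and BCL2L11 to BCL2L1 overlapped between groups (0.085 and 0.0774 against 0.0838 and 0.0717). Summed by role, guardians made up 56.9% and 54.6% of the family's CPM per kb in untreated and 42.0% and 43.2% in SP2509 libraries. Their summed level with TMM scaling did not fall, with 104 and 102 CPM per kb in untreated and 128 and 141 in SP2509 libraries. The share of BH3-only genes was 27.8% and 29.5% in untreated and 42.2% and 41.7% in SP2509 libraries. Of the BH3-only genes, only PMAIP1 (10.9% and 12.7% against 22.8% and 22.3%) and BBC3 (4.4% and 4.1% against 9.0% and 9.3%) gained share. The share of BIK overlapped between groups, and those of BID and BCL2L11 were lower with SP2509. Effectors held 15.3% and 15.9%, against 15.8% and 15.1% with SP2509, values that overlapped. Within them BAK1 gained share (4.6% and 4.4% against 6.2% and 5.9%). BAX lost share (10.8% and 11.5% against 9.6% and 9.2%).

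**Figure D3:**
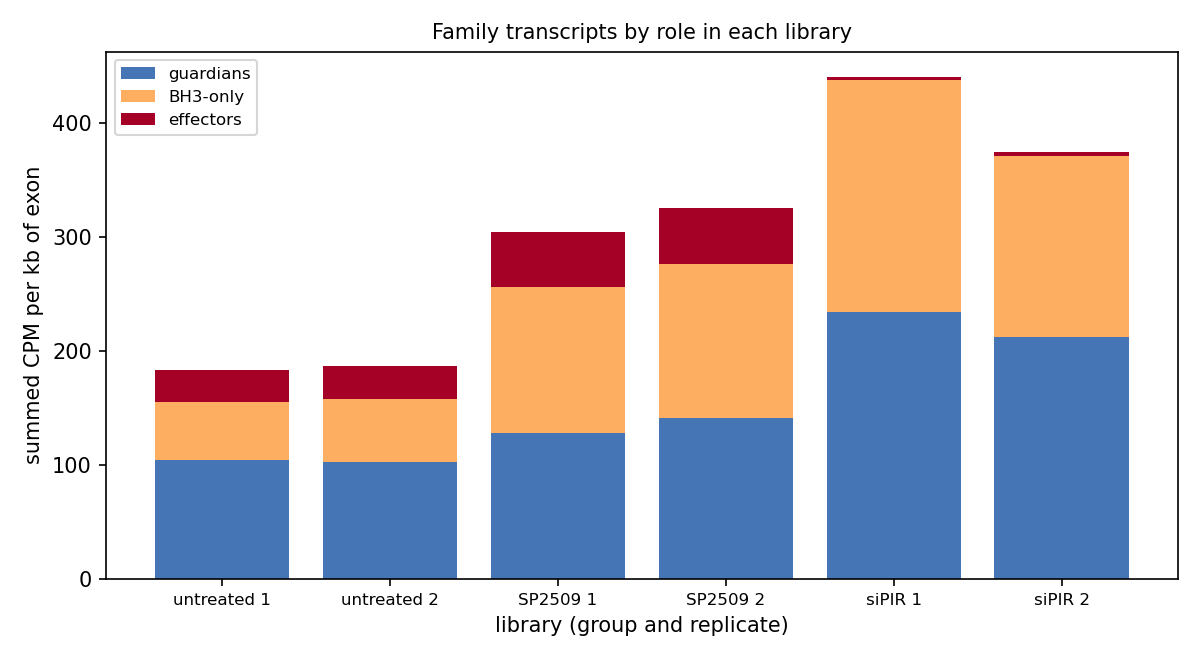
Summed CPM per kb of exon of the 3 guardians, 5 BH3-only genes and 2 effectors in each of the 6 libraries. The BH3-only part grows from 50.8 and 55.1 in untreated to 128 and 136 in SP2509 libraries, and the effector part is 3.13 and 3.10 in siPIR libraries. These sums are not corrected for GC content. With the GC-length offset BAX was lower (-0.95) and BAK1 higher (0.80) in siPIR than in untreated libraries on the log2 scale.

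Other genes of the mitochondrial pathway were described by lists. Of 15 further BCL2 family genes, 12 were tested with SP2509, of which 4 rose and 2 fell (median log2 fold change 0.027). BNIP1, a BH3-containing SNARE protein of the endoplasmic reticulum, rose from 8.60 ± 0.71 to 42.9 ± 0.0644 CPM (log2 fold change 2.32, edgeR adjusted p = 5.74e-09). BMF, a BH3-only gene, fell from 4.71 ± 0.535 to 1.17 ± 0.342 CPM (log2 fold change -2.01, edgeR adjusted p = 1.18e-05), and BCL2L2, the gene of the guardian BCL-W, rose by 0.92 on the log2 scale. The guardian genes BCL2A1 and BCL2L10 had too few counts to be tested.

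Downstream of the membrane, 4 of 18 genes of the apoptosome and its caspases rose and 9 fell with SP2509 (median -0.28). CASP9, the initiator caspase of the apoptosome, rose by 1.02, VDAC2, a mitochondrial porin known to bind BAK, rose by 0.98, and PARP1, a caspase substrate, changed by -1.04. Of 6 tested inhibitors of apoptosis, 4 rose and 1 fell (median 0.50). BIRC3 and BIRC2, the genes of cIAP2 and cIAP1, rose by 1.16 and 1.09, and BIRC5, the survivin gene, changed by -0.69. Among 16 regulators known to act on BCL2 family genes, 12 rose and 2 fell (median 1.19), led by the stress genes ATF3 (5.79), DDIT3 (5.50) and TRIB3 (4.23), of which the last encodes a pseudokinase. Of 9 genes for turnover or tethering of family proteins, 3 rose and 4 fell (median -0.15). FBXW7, a ubiquitin ligase subunit for MCL-1, rose by 1.49, TPT1, an MCL-1 binding protein, by 1.0, and USP13, a deubiquitinase for MCL-1, changed by -0.69. Each gene named here was called by edgeR at an adjusted p of 9.49e-05 or lower. All medians of these lists stand beside a median of -0.04 over all genes.

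Setting siPIR against untreated cells addresses what the knockdown of Pirin changes, and neither effects of transfection nor a difference in the quality or preparation of the libraries can be told apart from it. As fitted, 3 members rose (PMAIP1, MCL1 and BCL2L11), 6 fell and BCL2 did not pass the test. The background was high, with 39.3% of all genes called higher and 46.9% lower by edgeR. The members differ in GC content: PMAIP1 had the lowest (37.2%), MCL1, BCL2 and BCL2L11 lay between 45.1% and 45.7%, BID at 49.7%, BIK, BCL2L1, BAK1 and BAX between 56.0% and 58.9%, and BBC3 at 69.7%. Each value is therefore given a second time from a fit with a GC-length offset, in which the trend of each library with GC content and transcript length is removed. With it 7 members were higher and 3 lower, against 33.4% and 30.7% of all genes. The median of the members was -1.32 as fitted, against -0.28 over all genes, and 0.83 with the offset, against -0.0051. The offset also removes any difference of other origin that follows GC content, and left a Spearman correlation of -0.117 with GC content across genes.

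MCL1 had the largest rise that remained with the offset. Its level was 167 and 163 CPM in untreated and 956 and 855 CPM in siPIR libraries. That was a 5.48-fold rise (log2 fold change 2.45, SE 0.109, edgeR adjusted p = 1.91e-10), and with the offset the log2 fold change was 2.01 (SE 0.081, edgeR adjusted p = 9.32e-15). The 2888 tested genes with 45 to 50% GC had a median of 0.064 and an upper quartile of 0.67, so MCL1 stood above the range of the middle of its class. MCL1 is at the lower edge of that class. The 3451 genes with 40 to 45% GC had a median of 1.08 and an upper quartile of 1.59, which MCL1 also exceeded. BCL2, with almost the same GC content, was at 4.597 and 2.92 CPM in siPIR libraries (88 and 56 counts), both below the untreated values of 4.65 and 5.12 CPM, the higher of them only just. It did not pass as fitted (log2 fold change -0.38, SE 0.202, edgeR adjusted p = 0.0962) and did with the offset (-0.81, edgeR adjusted p = 0.000971), without siPIR replicate 1 (-0.72, edgeR adjusted p = 0.00585), when scaled by the upper quartile (-0.55, 0.0178) or by total counts (-1.0, 0.000137), and with no count filter (-0.46, 0.034) or a block for an unexplained number in the sample descriptions (-0.67, 0.0171). BCL2L1 went from 216 and 213 CPM to 50.1 and 54.6 CPM. It fell as fitted (log2 fold change -2.04, SE 0.103, edgeR adjusted p = 5.85e-10) and turned upward under the offset, to 0.38 (edgeR adjusted p = 0.000164). Genes with 55 to 60% GC had a median of -2.61.

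Of the BH3-only genes, BCL2L11 rose in both fits, by less with the offset. It was at 102 and 92.4 CPM in siPIR libraries against 36.9 and 33.2 CPM in untreated ones, a log2 change of 1.47 (SE 0.104, edgeR adjusted p = 1.56e-08), or 1.10 with the offset (edgeR adjusted p = 1.47e-10). The ratio of BCL2L11 to BCL2, which share a GC content within 1 percentage point, was 14.0 and 11.4 per kb in untreated, 39.1 and 56.0 in siPIR and 27.4 and 23.0 in SP2509 libraries. PMAIP1 went from 44.3 and 53.03 CPM to 403 and 308 CPM, with both siPIR libraries far above the others. Its change of 2.87 on the log2 scale (SE 0.14, edgeR adjusted p = 4.44e-10) became 1.06 with the offset (edgeR adjusted p = 8.36e-10), beside a median of 1.93 over all genes below 40% GC. BID, at 13.9 and 11.9 CPM in siPIR libraries, fell as fitted (log2 fold change -1.30, edgeR adjusted p = 2.16e-07) and with the offset (-0.79, edgeR adjusted p = 1.56e-06).

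For BIK and BBC3 the direction depended on the fit. BIK was at 4.07 and 4.11 CPM in siPIR libraries, a fall as fitted (-1.34, edgeR adjusted p = 8.29e-07) that turned upward under the offset, to 0.86 (edgeR adjusted p = 3.97e-05). BBC3 was left with 28 and 21 counts, or 1.46 and 1.09 CPM. As fitted it was 19.5-fold lower (log2 fold change -4.28, SE 0.168, edgeR adjusted p = 7.69e-11), and with the offset it was higher by 1.43 (SE 0.236, edgeR adjusted p = 1.86e-05). The 607 genes above 65% GC had a median of -5.83 as fitted and still -0.85 with the offset. BBC3 lay above the upper quartile of that class in both fits (-4.74 as fitted and 0.26 with the offset). Its direction against untreated cells changed with the fit and rests on few counts, so it is not settled by these libraries.

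The effectors were the pair with the closest GC content, 58.8% for BAK1 and 58.9% for BAX, and they differed in siPIR libraries. BAX went from 50.9 and 55.6 CPM to 3.08 and 3.64 CPM, based on 59 and 70 counts. It fell as fitted (log2 fold change -3.98, SE 0.135, edgeR adjusted p = 2.86e-11) and with the offset (-0.95, SE 0.128, edgeR adjusted p = 1.27e-06). BAK1 went from 18.5 and 18.0 CPM to 4.28 and 3.75 CPM, a fall as fitted (-2.18, SE 0.132, edgeR adjusted p = 3.19e-09) that turned upward under the offset, to 0.80 (edgeR adjusted p = 9.97e-05). Genes of 55 to 60% GC had a lower quartile of -3.36 and an upper quartile of -1.78, so BAX lay below that range and BAK1 within it. Both genes are near the upper edge of that class. In the next class, 60 to 65% GC, the quartiles were -5.11 and -3.24, a range that holds BAX and has BAK1 above it. With the offset the quartiles at 55 to 60% GC were -0.75 and 0.68, with BAX below and BAK1 above. The ratio of BAK1 to BAX per kb, 0.424 and 0.379 in untreated libraries, was 1.63 and 1.20 in siPIR libraries. Effectors made up 0.71% and 0.829% of the family's CPM per kb there, a share that is not corrected for GC content.

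**Figure D4:**
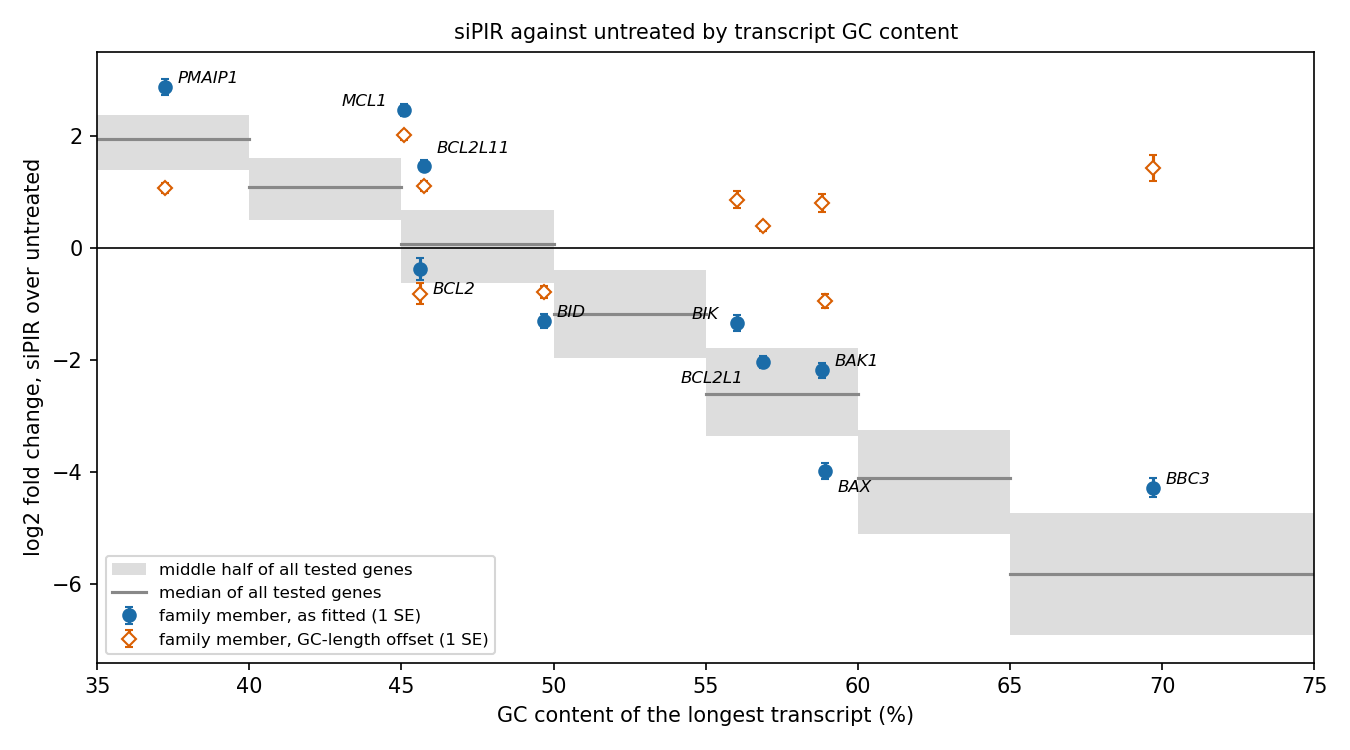
Log2 fold change of siPIR over untreated against the GC content of the longest transcript, for each gene as fitted (filled circles) and with the GC-length offset (open diamonds), with error bars of 1 SE. Grey bands and lines give the quartiles and median of all tested genes in each GC class (the outer classes are drawn only from 35% and up to 75%). As fitted, BAX and BID lie below their bands, PMAIP1, MCL1, BCL2L11, BIK and BBC3 above theirs, and BCL2, BCL2L1 and BAK1 within. Genes near a class edge can stand otherwise against the adjoining band. BID, BAX, BCL2L11 and BIK lie within it, BCL2 below it, and BAK1 and MCL1 above it. BCL2L1, BIK, BAK1 and BBC3 change sign with the offset.

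The lists are given for siPIR in both fits, beside a median of -0.28 over all genes as fitted and -0.0051 with the offset. Of 12 tested further family genes, 4 rose and 5 fell as fitted (median -0.18, median GC 51.1%), and 5 rose and 3 fell with the offset. BAD, a BH3-only gene controlled by survival kinases, went from 21.97 ± 0.615 to 0.182 ± 0.11 CPM (log2 fold change -6.87, and -1.97 with the offset, edgeR adjusted p = 0.000219). BCL2L12 was at -4.40 and at -1.33 with the offset, and the effector-like gene BOK at -4.45, which became 0.36 and was not called with the offset (edgeR adjusted p = 0.12). Of 18 apoptosome and caspase genes, 8 rose and 9 fell (median -0.17), and 6 and 6 with the offset. CYCS, the cytochrome c gene, rose by 1.69 (0.53 with the offset), HTRA2, a mitochondrial protease, changed by -2.29 (1.13) and ENDOG, an endonuclease of mitochondria, by -4.79 (0.48, not called with the offset).

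Inhibitors of apoptosis were of low GC content (median 40.6%), and 5 of 6 rose as fitted and 3 with the offset. BIRC3 rose by 3.24 (1.06 with the offset), BIRC2 by 2.84 (1.09) and XIAP by 2.49 (0.79). Of the 16 regulators, 5 rose and 10 fell as fitted, and 10 rose and 3 fell with the offset. E2F1 was at -4.34 (-0.39, not called with the offset), TP73 at -4.21 (-0.71) and RELA at -2.32 (0.13, not called with the offset). Among the 9 turnover and tethering genes, 5 rose and 3 fell as fitted and 3 and 3 with the offset. FBXW7 rose by 2.19 and kept 1.85 with the offset, TPT1 rose by 1.27 (0.56), and USP9X, a deubiquitinase for MCL-1, rose by 1.46, which became 0.0065 and was not called with the offset.

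The direct comparison of siPIR with SP2509 libraries asks where the 2 perturbations differ. Both comparisons above share the untreated libraries, so the difference was tested between the perturbed libraries themselves. As fitted, 3 members were higher in siPIR and 6 lower, against 38.8% and 45.5% of all genes, and with the offset 2 were higher and 6 lower, against 32.8% and 36.3%. The members' median was -1.74 as fitted, beside -0.23 over all genes. MCL1 was 4.08-fold higher in siPIR (log2 difference 2.03, SE 0.107, edgeR adjusted p = 8.85e-10), and 1.56 with the offset. BCL2L11 was higher by 1.18 (edgeR adjusted p = 1.61e-07), and by 0.80 with the offset. BAX (-4.50, and -1.63 with the offset), BID (-1.38 and -0.97) and BAK1 (-3.39 and -0.63) were lower in siPIR in both fits, with edgeR adjusted p-values of 0.000498 or lower. With the offset, genes of 55 to 60% GC had quartiles of -0.90 and 0.91, a range that holds BAK1 and has BAX below it. BID lay below the lower quartile of its class of 45 to 50% GC (-0.74). The fall of BAK1 with the offset is therefore not set apart from its class. BBC3 was at -6.15 as fitted and at -0.84 with the offset (edgeR adjusted p = 0.000578). Genes above 65% GC still had a median of -1.02 with the offset, with quartiles of -2.57 and 0.13, so BBC3 lay within its class and its direction is not settled here either.

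PMAIP1, BIK and BCL2 changed sign between the 2 fits, and BCL2L1 was lower in both. PMAIP1 was higher in siPIR by 1.16 as fitted (edgeR adjusted p = 2.13e-06) and lower with the offset (-0.68, edgeR adjusted p = 3.23e-07). BIK was lower as fitted (-2.10) and at 0.020 with the offset (edgeR adjusted p = 0.908). BCL2L1 was lower as fitted (-2.40) and by less with the offset (-0.18, edgeR adjusted p = 0.0447), and did not pass with the replicate block added to the offset (edgeR adjusted p = 0.0605). BCL2 did not pass in either fit (0.31, edgeR adjusted p = 0.204, and -0.12 with the offset, edgeR adjusted p = 0.635), and its 4 values overlapped between groups. Without siPIR replicate 1 its difference was -0.050, and without siPIR replicate 2 it was 0.62 (edgeR adjusted p = 0.014).

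In the lists, 4 of 12 further family genes were higher in siPIR than in SP2509 libraries and 7 lower as fitted, and 5 and 5 with the offset. BAD was at -6.90 (-2.27 with the offset), BCL2L12 at -5.10 (-2.23) and BOK at -4.29 (0.17, not called with the offset). Of 18 apoptosome and caspase genes, 7 were higher and 7 lower as fitted, and 7 and 8 with the offset. ENDOG was at -4.63 (0.33, not called with the offset), CASP9 at -2.33 (-1.21) and CYCS at 1.91 (0.77). Inhibitors of apoptosis were higher in 5 of 6 and lower in 1 as fitted, but higher in 1 and lower in 2 with the offset. XIAP was at 1.89 (0.22 with the offset), while BIRC3, at 2.08, and BIRC2, at 1.74, became -0.18 and -0.013 and were not called with the offset. Of 16 regulators, 13 were lower and 2 higher as fitted, and 9 and 4 with the offset, with TRIB3 at -6.46, ATF3 at -4.71 and DDIT3 at -4.28, and these 3 stayed lower with the offset (-3.18, -4.84 and -3.75). Of 9 turnover and tethering genes, 5 were higher and 2 lower as fitted, and 5 and 4 with the offset. USP9X was at 1.62 (0.21 with the offset), HUWE1, a ubiquitin ligase for MCL-1, at -1.28 (-0.77) and USP13 at 1.27 (0.61).

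BBC3 had the largest fold change of the members with SP2509, and the 3 tested genes nearest to it in centred log2 CPM over the 6 libraries were UNC13D (Euclidean distance 0.307), PHLDA3 (0.33) and PHLDA2 (0.332). UNC13D was at 8.85 and 8.35 CPM in untreated, 32.6 and 36.3 CPM in SP2509 and 0.522 and 0.469 CPM in siPIR libraries. PHLDA3 was at 29.6 CPM in both untreated, 102 and 111 CPM in SP2509 and 1.36 and 1.35 CPM in siPIR libraries. PHLDA2 was at 79.8 and 70.6 CPM in untreated, 226 and 248 CPM in SP2509 and 4.81 and 3.59 CPM in siPIR libraries. The GC contents of the 3 are 63.3%, 59.6% and 63.1%.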

How the data were processed

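Gene expression was measured by RNA-seq in 6 HCT116 libraries, grouped by their titles. The authors deposited 1 table of estimated counts, many of them not whole numbers. Per the submitters' processing notes, the build was GRCh38 and the tools included HISAT2, Subread 1.6.2 with featureCounts, Trimmomatic 0.32, FastQC 0.11.8 and edgeR 3.26.4. The sources used here do not give the annotation, the strand setting or the rule behind fractional counts. Libraries held 22622441 to 28816590 counts.

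Counts were rounded, filtered with filterByExpr, scaled by TMM and fitted with edgeR 4.0.16 (R 4.3.3) by the robust quasi-likelihood test, with all 6 libraries in 3 groups and no covariates. P-values were adjusted over 16503 genes by the Benjamini-Hochberg method (threshold 0.05). The SE is the log2 fold change divided by the square root of F. Coordinates, exon lengths and GC content of the longest transcript came from GENCODE 29, which held 57055 of the 60675 identifiers. The GC-length offset fitted each library's deviation from the mean log2 CPM on natural splines of GC content and log2 length, with no correction for the 158 tested genes lacking a GC value. On counts simulated for SP2509 against untreated (15723 genes), edgeR recovered 90% of 100 genes changed 2-fold and 100% of 100 changed 4-fold. It made 7 false calls among the other genes. Only those genes were changed, equally up and down, so the simulation does not cover the dependence on scaling.

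All 10 members are named in each comparison. From each list, up to 3 genes past the threshold with the largest absolute fold change and an average log2 CPM of at least 1 are named. The members, lists and alternatives were chosen with earlier results of these data known. The alternatives were other scalings, DESeq2 1.42.0, limma-voom (limma 3.58.1), other count filters, a fit of 4 libraries, blocks, the offset, a fit that is not robust, removal of abundant gene classes and removal of each library.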

Additional observations from a re-analysis of the deposited data

How the results depend on the processing

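The number of members called stayed within 1.5 times of the 9 in each comparison under every alternative run. For SP2509 against untreated it was lowest, at 6, under both upper-quartile and total-count scaling, and between 6 and 9 when a library was left out. For siPIR against untreated it ran from 9 to 10 when a library was left out, and for siPIR against SP2509 from 9 to 10. Directions turned for SP2509 under total-count scaling (BCL2L1 -0.031, BCL2L11 -0.098, BID -0.32) and with upper-quartile scaling (BID -0.16). With the GC-length offset they turned for siPIR against untreated (BCL2L1 0.38, BBC3 1.43, BIK 0.86, BAK1 0.80) and for siPIR against SP2509 (BCL2 -0.12, PMAIP1 -0.68, BIK 0.020). The replicate block with the offset, an alternative chosen after seeing the data, gave the same turns (BCL2L1 0.38, BBC3 1.43, BIK 0.86 and BAK1 0.80 against untreated, and BCL2 -0.12, PMAIP1 -0.68 and BIK 0.021 against SP2509). With the block and the offset BCL2L1 also lost its call between siPIR and SP2509 (edgeR adjusted p = 0.0605). BCL2 in siPIR against SP2509 ranged from -0.050 to 0.62 over the left-out libraries.

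The replicate block alone left 9 members called in each of the 3 comparisons, beside 11179 (SP2509 against untreated), 14136 (siPIR against untreated) and 13816 (siPIR against SP2509) of all genes. The numbers are not said to pair the libraries, and deviations of same-numbered libraries correlated at -0.0176 (untreated and SP2509), -0.0277 (untreated and siPIR) and 0.0627 (SP2509 and siPIR). Depth limits BCL2 in all libraries and BBC3, BAX, BAK1 and BIK in siPIR libraries, where each had fewer than 100 counts.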
